A study of Mus musculus with 18 samples.

Results

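Insm1, Mfng, Rgs16, Gadd45g, Btg2 and Eomes, genes of the intermediate progenitors of the cortex, were followed across the embryonic mouse neocortex. They were chosen by gene symbol in the platform annotation, where probes with 1 symbol name 15063 genes. This gave 6 probes of 21998, 1 for each gene, and all 6 had a value on all 18 arrays. The tissue was neocortex of MF1 embryos at E13.5 (a stage in days of embryonic development), divided into a rostral, a middle and a caudal region, and the labels name no allele, treatment or transgene. There were 9 pools of total RNA, 3 per region. The labels name 4 embryos as their source, without saying whether in all or per pool, so the p-values reflect only how far these pools scattered, and that scatter may be technical. An array paired a pool in the dye Cy3 with a pool of another region in Cy5. Every pool was hybridised 4 times, 2 times per dye, which gave 6 arrays for each pair of regions.

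Cortical neurons arise from radial glia, the stem cells that line the ventricle, either directly or through intermediate progenitors. Intermediate progenitors leave the ventricular surface, divide away from it to give neurons, and are recognised by the T-box factor Eomes, also called Tbr2. Of the genes followed here, Eomes and Insm1 encode transcription factors, Btg2 and Gadd45g encode proteins that restrain proliferation, Rgs16 encodes a regulator that shortens G protein signals, and Mfng encodes a fringe glycosyltransferase that modifies Notch receptors.

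An array gives a ratio of 2 pools, so these data hold no level of a gene, cannot rank the genes by abundance and cannot show by themselves that intermediate progenitors were present. The value of a pool was estimated from its 4 arrays with a coefficient for the dye and is given on the log2 scale relative to the mean of the 9 pools. Ratios were read as Cy5 over Cy3, a direction that is likely and not stated. Its basis is the order of the channels in the labels and Nr2f1, a transcription factor gene known to be higher in caudal cortex. Read this way, the first probe of Nr2f1 was at 0.45 to 0.51 in the caudal and -0.69 to -0.46 in the rostral pools (limma adjusted p = 0.0138), and its second probe was at 0.36 to 0.79 and -0.74 to -0.17 (limma adjusted p = 0.150). If the ratio were the inverse, every sign below would turn.

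None of the 6 genes passed the test in any comparison of regions. Between 18315 and 20924 probes per array, control spots included, had a usable value, and 18525 features were tested together, so that each adjusted p is over all of them. In limma's test 12 features passed an adjusted p of 0.05 between rostral and caudal pools (0.0648%), 0 between rostral and middle (0%) and 0 between middle and caudal (0%). Among the 6 genes Insm1 had the lowest adjusted p between rostral and caudal pools, 0.283, and between middle and caudal pools, 0.408. Btg2 had the lowest between rostral and middle pools, 0.863. In limma's F test of any difference among the 3 regions 0.0108% of features passed and 0 of the 6 genes, with Insm1 lowest at an adjusted p of 0.295. What follows therefore describes how the pools lay, with sizes and intervals.

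The 6 genes did not share a pattern. In 5 of them the 3 pools of a region lay wholly above or wholly below the other 6 pools: caudal below for Insm1, middle above for Rgs16 and Mfng, rostral above for Btg2 and rostral below for Gadd45g. Eomes showed no such region. A region stood apart in this way in 9.84% of all features. This description was chosen after the values were seen, and the genes were proposed with earlier results of these data known, so the count is no test. It rests on centring each array on its median: without centring it held for Btg2 and Gadd45g only, as against 15.3% of features.

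**Figure D1:**
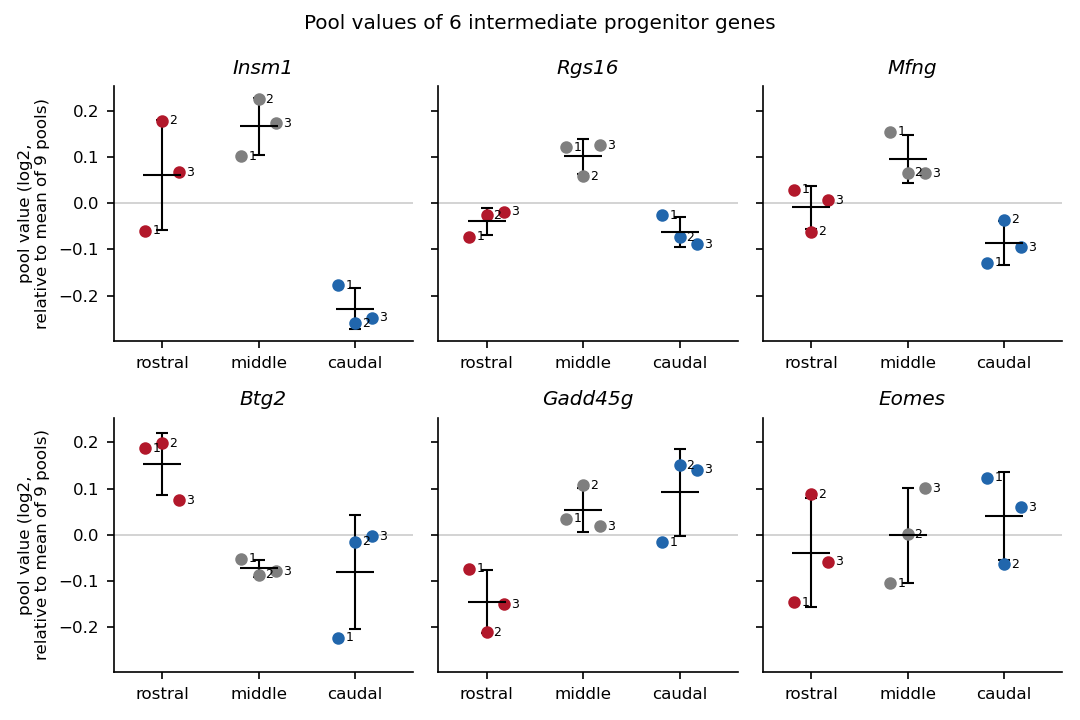
Value of each of the 9 pools (log2, relative to their mean, y axis) by region (x axis) for the 6 genes; points are pools with their number, and the bar and whiskers are the mean and SD of 3 pools. The caudal pools of Insm1 lie lowest at -0.26 to -0.18, the middle pools of Rgs16 and Mfng lie highest, and the rostral pools lie highest for Btg2 and lowest for Gadd45g.

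Insm1 showed the largest difference between regional means among the 6 genes, between middle and caudal. Insm1, a zinc finger factor that promotes the formation of basal progenitors, was at -0.060, 0.18 and 0.068 in rostral pools 1 to 3. In the middle pools it was at 0.10, 0.23 and 0.17, and in the caudal pools at -0.18, -0.26 and -0.25. The caudal pools were the lowest of the 9, while rostral and middle pools overlapped. The regional means were 0.062 ± 0.12 (SD, n = 3 pools) in rostral, 0.17 ± 0.062 in middle and -0.23 ± 0.044 in caudal tissue.

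The middle mean of Insm1 was 1.31-fold above the caudal mean (log2 difference 0.39 ± 0.072, SE; 95% interval 0.22 to 0.56; limma adjusted p = 0.408). In this comparison its p-value ranked 38 among the 18525 features, and its difference was larger in size than that of 88.7% of them. The rostral mean was 1.22-fold above the caudal mean (0.29 ± 0.072, interval 0.12 to 0.46, limma adjusted p = 0.283). Rostral minus middle was -0.10 ± 0.072, with an interval of -0.27 to 0.065. Without centring, which moved the median of all features to -0.17 for middle minus caudal, that difference of Insm1 was 0.22, and rostral minus middle was -0.0035. In a bulk sample fewer cells that express a gene and less RNA per cell cannot be told apart, here and for the other genes.

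Ratios of single arrays, each centred on its median, had Insm1 lower in caudal pools. The pool values were fitted to these same arrays, so the ratios are no separate support. On the 6 arrays that joined rostral and caudal pools the ratio, turned to rostral over caudal, ran from 0.105 to 0.39 with a median of 0.33 and was above 0 on all 6. With the rostral pool in Cy5 the mean was 0.28, and with it in Cy3 it was 0.305. On the 6 arrays of middle and caudal pools the ratio ran from 0.25 to 0.53 (median 0.39), again above 0 on all 6. As deposited, without centring, 4 of 6 ratios were above 0 in each of these pairs. Rostral over middle ran from -0.31 to 0.16, with 5 of 6 centred ratios below 0. As deposited, 4 of those 6 were above 0, the other way. With any 1 pool left out, middle minus caudal was between 0.36 and 0.42 in the pool fit.

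Eomes was spread as widely within regions as between them. The rostral pools of this gene, whose product defines intermediate progenitors, were at -0.15, 0.088 and -0.059. The middle pools were at -0.11, 0.0014 and 0.10, and the caudal pools at 0.12, -0.064 and 0.059. Every region held pools above and below 0, and all 3 regions overlapped. Rostral minus caudal was -0.078 ± 0.088 (95% interval -0.29 to 0.13, limma adjusted p = 0.926). Rostral minus middle was -0.038 ± 0.088 (interval -0.24 to 0.17) and middle minus caudal -0.041 ± 0.088 (interval -0.25 to 0.17). The intervals hold 0 and also differences of 0.1 in both directions, so they do not show that the regions had the same Eomes level. Without centring rostral minus caudal was -0.15, rostral minus middle 0.063 and middle minus caudal -0.21. With 1 pool left out the differences also moved: rostral minus caudal was between -0.14 (without caudal pool 2) and -0.036 (without caudal pool 1).

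**Figure D2:**
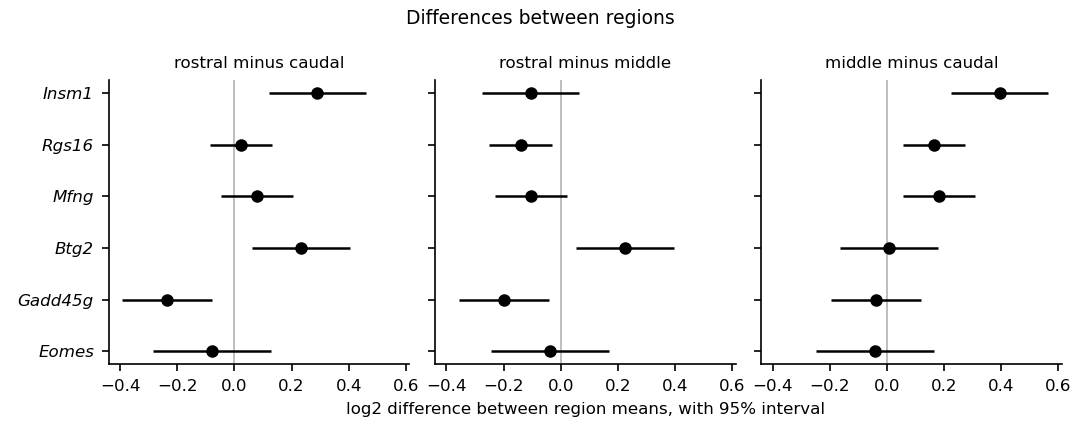
Log2 difference between the means of 2 regions (x axis) for each gene (y axis), with points for the estimate and lines for its 95% interval, from 3 pools per region. The intervals are not adjusted for the number of features tested. The intervals of Insm1 lie above 0 against the caudal region, those of Eomes span 0 in all 3 comparisons, and no gene passed the adjusted threshold.

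Of the genes of the growth-restraining proteins, Btg2 was highest and Gadd45g lowest in the rostral pools. Btg2, an antiproliferative gene switched on in progenitors about to make neurons, was at 0.19, 0.20 and 0.075 in rostral pools 1 to 3. It was at -0.052, -0.086 and -0.079 in the middle pools and at -0.22, -0.015 and -0.0035 in the caudal pools. The rostral pools were the highest of the 9, the middle pools lay close together (SD 0.018), and caudal pool 1 was well below the other caudal pools. The rostral mean was 1.18-fold above the caudal mean (log2 difference 0.23 ± 0.073, interval 0.063 to 0.40, limma adjusted p = 0.410). It was 1.17-fold above the middle mean (0.23 ± 0.073, interval 0.055 to 0.40, limma adjusted p = 0.863). Middle and caudal means differed by 0.0079 ± 0.073, with an interval of -0.16 to 0.18, and by -0.17 without centring.

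On arrays centred on their medians, the Btg2 ratio was higher for the rostral pool wherever a rostral pool was present. The 6 ratios of rostral over caudal ran from 0.087 to 0.33 (median 0.15) and the 6 of rostral over middle from 0.068 to 0.38 (median 0.30). Between middle and caudal pools 4 of 6 ratios were above 0, from -0.079 to 0.215. The highest of these, 0.215 and 0.15, were both from arrays with caudal pool 1. As deposited, 4 of 6 ratios of rostral over caudal and 6 of 6 of rostral over middle were above 0.

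Gadd45g, a growth arrest gene expressed as neural progenitors commit, was at -0.074, -0.21 and -0.15 in the rostral pools. The middle pools were at 0.034, 0.11 and 0.019 and the caudal pools at -0.017, 0.15 and 0.14. All rostral pools were below the other 6, and middle and caudal pools overlapped. The rostral mean was 1.18-fold below the caudal mean (log2 difference -0.24 ± 0.067, interval -0.39 to -0.080, limma adjusted p = 0.350). It was 1.15-fold below the middle mean (-0.20 ± 0.067, interval -0.35 to -0.041, limma adjusted p = 0.887), and that difference was -0.097 without centring, where the median of all features was 0.10. Middle minus caudal was -0.038 ± 0.067, with an interval of -0.19 to 0.12. It was -0.21 without centring, -0.10 without caudal pool 1 and -0.0065 without caudal pool 2.

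The centred Gadd45g ratio was lower for the rostral pool on every array that held one. Rostral over caudal ran from -0.33 to -0.13 (median -0.31) and rostral over middle from -0.27 to -0.077 (median -0.16). Between middle and caudal pools 3 ratios were above 0 and 3 below. As deposited, 6 of 6 ratios of rostral over caudal and 4 of 6 of rostral over middle were below 0. Gadd45g had the lowest residual SD between arrays of the 6 genes, 0.061, against a median of 0.26 over all features tested.

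Other measures also varied among the pools. Their part in the values of Insm1, Btg2 and Gadd45g was not tested beyond the covariate given here. The Gapdh control spots, which carry a housekeeping gene, were at -0.15 to -0.040 in the rostral, 0.068 to 0.086 in the middle and -0.14 to 0.15 in the caudal pools. With their pool medians as a covariate rostral minus caudal was 0.28 ± 0.087 for Insm1, 0.32 ± 0.053 for Btg2 and -0.19 ± 0.071 for Gadd45g. Rostral minus middle was then 0.37 ± 0.064 for Btg2 and -0.12 ± 0.084 for Gadd45g. The Gapdh spots overlapped between rostral and caudal pools but not between rostral and middle pools. In the latter comparison the covariate and the region cannot be cleanly separated. Of 11 marker genes of the meninges, the membranes around the brain, 10 were measured. All 10 had lower means in rostral than in caudal pools (median -0.16, range -0.66 to -0.0026), and 0 of them passed. Their median per pool was -0.13 to -0.0039 in rostral, -0.051 to 0.046 in middle and 0.035 to 0.13 in caudal pools.

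Promoter sequences of Gadd45g and Btg2, lowest and highest in the rostral pools, are shown as the 250 bases before the annotated start of each gene. RefSeq windows of build GRCm38.p6 were matched by symbol for 4 of the 6 genes, Rgs16, Gadd45g, Btg2 and Eomes, and not for Insm1 and Mfng. Capitals mark the E-boxes CANNTG in Gadd45g and the palindrome TGACGTCA, the consensus cyclic AMP response element, in Btg2. E-boxes are a broad class of sites, and proneural factors bind only some of them. The Gadd45g window is chr13:51846425-51846674 on the plus strand, and the Btg2 window is chr1:134079156-134079405 on the minus strand.
Gadd45g: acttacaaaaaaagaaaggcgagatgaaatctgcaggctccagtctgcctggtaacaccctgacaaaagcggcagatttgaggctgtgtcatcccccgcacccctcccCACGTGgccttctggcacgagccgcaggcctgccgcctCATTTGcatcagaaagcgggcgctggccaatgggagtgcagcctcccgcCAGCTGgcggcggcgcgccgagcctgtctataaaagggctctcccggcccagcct
Btg2: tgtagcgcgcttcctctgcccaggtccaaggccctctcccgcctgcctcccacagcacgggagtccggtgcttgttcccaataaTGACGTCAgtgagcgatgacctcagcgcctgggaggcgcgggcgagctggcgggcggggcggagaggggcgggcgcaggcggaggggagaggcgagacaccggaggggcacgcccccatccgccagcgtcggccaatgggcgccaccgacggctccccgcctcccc

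Both motifs read the same on either strand, and all 32851 windows of this length were searched. The Gadd45g window held 3 E-boxes that do not overlap: CACGTG beginning 142 bases before the start, CATTTG beginning 104 bases before it and CAGCTG beginning 55 bases before it. The windows of Btg2, Rgs16 and Eomes held 0. An E-box was present in 66.2% of all windows, and 31.8% held at least 2. The share with at least 3 was not counted. TGACGTCA, looked for after the Btg2 sequence was read, begins 166 bases before the start of Btg2, was not in the windows of Gadd45g, Rgs16 and Eomes and was in 1.55% of all windows. A match describes the letters and is not a measured binding site.

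The genes of the signalling modifiers, Rgs16 and Mfng, were both highest in the middle pools. Rgs16 was at -0.072, -0.026 and -0.019 in rostral, 0.12, 0.059 and 0.13 in middle and -0.026, -0.073 and -0.088 in caudal pools. Rostral and caudal pools overlapped, and all middle pools lay above them. Rostral minus middle was -0.14 ± 0.047 (1.10-fold, interval -0.25 to -0.031, limma adjusted p = 0.879). Middle minus caudal was 0.16 ± 0.047 (1.12-fold, interval 0.055 to 0.27, limma adjusted p = 0.672). The rostral and caudal means differed by 0.024 ± 0.047, with an interval of -0.086 to 0.13. Without centring middle minus caudal was -0.010 and rostral minus middle -0.040, so the direction against caudal rests on the centring.

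On single centred arrays the order of Rgs16 was partial until the dye was taken into account: 4 of 6 ratios of middle over caudal were above 0 and 5 of 6 of rostral over middle below 0. Its dye coefficient was -0.16, the largest in size of the 6 genes: the pool in Cy3 tended to read higher whatever its region. Middle over caudal averaged -0.041 on the 3 arrays with the middle pool in Cy5 and 0.37 on the 3 with it in Cy3. With the dye coefficient taken off, all 6 ratios of middle over caudal were above 0, from 0.072 to 0.25. For rostral over middle 0 of 6 were then above 0, and they ran from -0.24 to -0.028. The dye coefficient was fitted to these same arrays together with the pool values, so the signs after its removal are no separate support. As deposited, with neither step, 3 of 6 ratios were above 0 in each of these pairs.

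Mfng was at 0.029, -0.061 and 0.0061 in rostral, 0.16, 0.066 and 0.065 in middle and -0.13, -0.035 and -0.095 in caudal pools. Its middle pools were the highest of the 9, and rostral and caudal pools overlapped. The middle mean was 1.13-fold above the caudal mean (log2 difference 0.18 ± 0.054, interval 0.055 to 0.31, limma adjusted p = 0.694). Rostral minus middle was -0.10 ± 0.054 (interval -0.23 to 0.022, limma adjusted p = 0.964) and rostral minus caudal 0.077 ± 0.054 (interval -0.049 to 0.20, limma adjusted p = 0.859). Without centring the 3 differences of Mfng were near 0: 0.0072 for middle minus caudal, -0.0029 for rostral minus middle and 0.0043 for rostral minus caudal. Of the 6 direct centred ratios of middle over caudal 5 were above 0, from -0.024 to 0.32, and of those as deposited 4 were. Mfng had the highest residual SD between arrays of the 6 genes, 0.13.

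**Figure D3:**
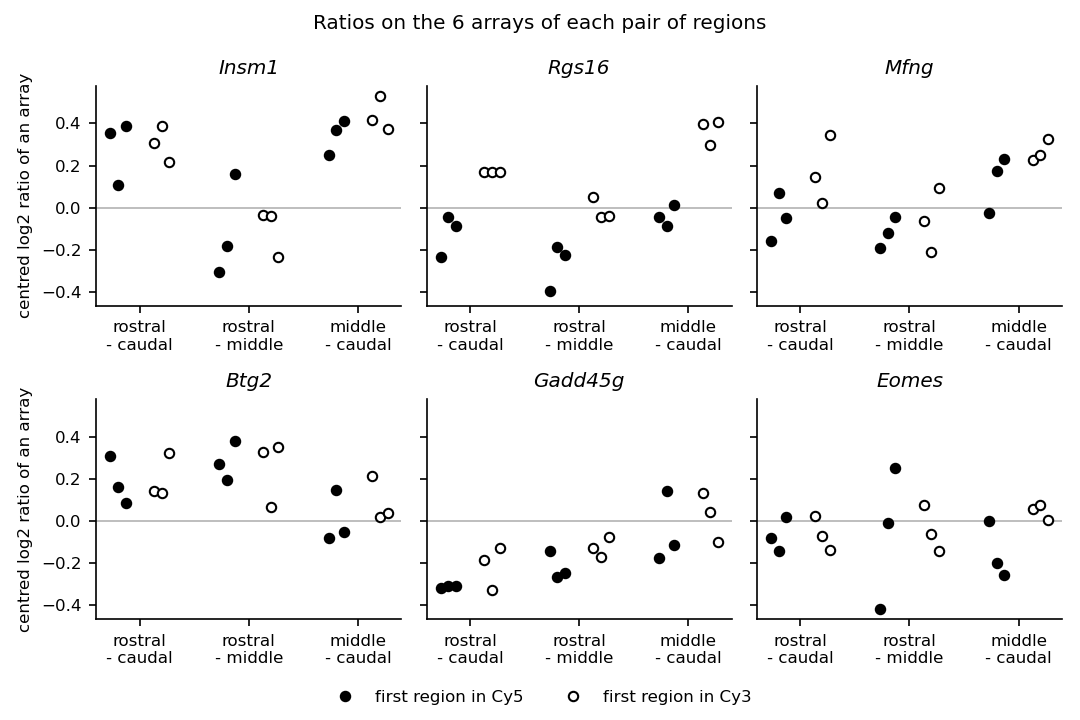
Log2 ratio of each array, centred on its median and turned to the first region over the second (y axis), for the 6 arrays of each pair of regions (x axis); filled points have the first region in Cy5 and open points in Cy3. All 6 points of Insm1 lie above 0 in both pairs with caudal pools, all points of Btg2 lie above and all of Gadd45g below 0 where a rostral pool was present (as deposited, 4 of 6 in both Insm1 pairs, in Btg2 rostral over caudal and in Gadd45g rostral over middle), and filled and open points of Rgs16 separate by dye.

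The differences were small. The fold between regional means was at most 1.31 (Insm1, middle against caudal), and every other one was at most 1.22. Over the 9 pools the SD was 0.19 for Insm1, 0.14 for Btg2, 0.13 for Gadd45g, 0.098 for Eomes, 0.089 for Mfng and 0.082 for Rgs16, against a median of 0.16 over all features. Insm1 thus varied more than 56.3% of the features, and Rgs16 more than 20.7%. None of the 18 sets of 6 direct arrays, 3 per gene, held an array that stood apart by Dixon's criterion. It was applied to centred ratios with the dye effect left in, on arrays that share pools, so it could miss such an array.

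The 6 genes had a median size of difference of 0.16 between rostral and caudal pools, where all features had 0.10. Between rostral and middle pools it was 0.12 against 0.094, and between middle and caudal pools 0.10 against 0.090. Rostral and caudal pools did not overlap for 3 of the 6 genes (Insm1, Btg2 and Gadd45g), as against 12.1% of features. Rostral and middle pools did not overlap for 4 (Btg2, Gadd45g, Rgs16 and Mfng), as against 12.8%, and middle and caudal pools for 3 (Insm1, Rgs16 and Mfng), as against 10.6%. Before adjustment limma put 3 of the 6 genes below 0.05 in each comparison, as against 7.9%, 5.25% and 4.86% of features in the same order. Because the genes were proposed with results of these data known, these counts are a description of the 6 genes alone.

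Insm1, Rgs16 and Mfng had the most similar pool values among the 6 genes. The correlations are descriptions over 9 pools that share arrays, and they were taken on centred values only. Without centring, middle minus caudal was 0.22 for Insm1, -0.010 for Rgs16 and 0.0072 for Mfng. Rgs16 and Mfng had r = 0.76, Insm1 and Rgs16 r = 0.73 and Insm1 and Mfng r = 0.62. Btg2 and Gadd45g had r = -0.57, and Eomes and Mfng r = -0.56. Eomes was between -0.56 and 0.085 with the other genes, highest with Rgs16.

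**Figure D4:**
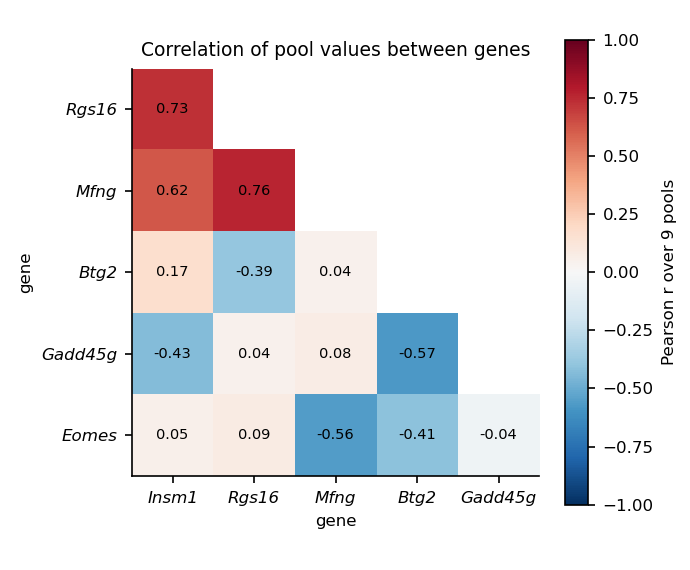
Pearson r of the pool values, from centred arrays, of each pair of genes (both axes), over the 9 pools. Each cell holds its value, and the colour scale runs from -1 to 1. Insm1, Rgs16 and Mfng have values from 0.62 to 0.76 with each other, and Btg2 with Gadd45g is lowest at -0.57.

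The genes with the most similar pool values were sought among 3072 features with 1 gene symbol, values on all 18 arrays and at least the median SD. For Insm1 these were Hmgb2 (r = 0.97), a chromatin protein gene active in dividing cells, Pimreg (r = 0.96), a gene of mitosis, and Wdr54 (r = 0.96). For Btg2 they were the histone chaperone gene Asf1b (r = 0.94), the lactate dehydrogenase gene Ldhb (0.93) and Ncan (0.93), which encodes the proteoglycan neurocan. For Gadd45g they were the tetraspanin gene Cd81 (r = 0.97), the neurotrophin gene Bdnf (0.96) and the ferritin pseudogene Fth-ps3 (0.96), which is uncertain since its probe may read ferritin transcripts. Rgs16 was closest to Myo5c (r = 0.90), Rela (0.88) and Pelo (0.86), and Mfng to Thbs3 (0.88), Rela (0.86) and Cdca7 (0.83). Eomes was closest to Stat2, Golph3 and Dclk1 (r = 0.92, 0.92 and 0.91). These are the highest of very many correlations, each over 9 pools, and none of these genes passed for rostral against caudal.

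Other genes used as markers of intermediate progenitors, not all of them particular to these cells, were taken from a list of 16, of which 14 were measured. None passed in any comparison: rostral minus caudal was above 0 for 5 and below 0 for 9 (median -0.052), rostral minus middle for 6 and 8 (median -0.047) and middle minus caudal for 6 and 8 (median -0.018). Lowest in p between rostral and caudal pools were the somatostatin receptor gene Sstr2 (-0.28 ± 0.062, limma adjusted p = 0.209), the bHLH gene Neurod1 (-0.22 ± 0.070, limma adjusted p = 0.437) and the bHLH gene Neurod4 (0.29 ± 0.11, limma adjusted p = 0.566). The proneural genes Neurog2 and Neurog1 had wide errors: rostral minus caudal was 0.36 ± 0.65 for Neurog2, with values on 16 arrays, and 0.075 ± 0.25 for Neurog1. Hes6, a bHLH gene that promotes neuronal differentiation, had -0.14 ± 0.060 (limma adjusted p = 0.624) and the Notch ligand gene Dll1 -0.075 ± 0.068 (limma adjusted p = 0.910).

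Cells before and after this stage were covered by lists of marker genes. Of 17 measured Notch receptors, ligands, fringes and targets 0 passed in any comparison, with 6 above and 11 below 0 for rostral against caudal (median -0.050). Dll1 and Dll3 were counted in the progenitor list as well, and Hes1 and Hes5 in the radial glia list. Of 14 radial glia genes 7 were above and 7 below 0 (median -0.0033), and Vim, which encodes the filament protein vimentin, passed as lower in rostral pools (-0.51 ± 0.052, limma adjusted p = 0.0389). Of 11 measured genes of postmitotic cortical neurons 0 passed, with 6 above and 5 below 0 (median 0.031). Markers of neighbouring or admixed tissue had 0 passes as well. Their medians for rostral minus caudal were 0.0084 for ventral telencephalon (11 measured), -0.017 for Cajal-Retzius cells (8), -0.070 for endothelium (8), -0.17 for red blood cells (7), -0.039 for microglia (5) and 0.028 for choroid plexus and dorsal midline (6). Red blood cell markers were below 0 for rostral against middle in all 7 measured genes (median -0.25), and their part in the values of Rgs16, Mfng, Btg2 and Gadd45g in that comparison was not tested.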

How the data were processed

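RNA of 9 pools was compared on 18 arrays with 2 dyes. The authors deposited 1 log2 ratio per probe and array. The sources used here do not give scanner, background correction, normalization or direction, and the log base was read from the cap of 16.61, log2 of 100000. Capped ratios (1477) were set to missing, arrays were centred on their medians (-0.093 to 0.61 before), and 232 Gapdh control spots were left out of the tests. Features needed values on 12 arrays and on 2 arrays of each pool. Per feature, least squares gave 9 pool values, summing to 0, and a dye coefficient. Limma 3.58.1 (lmFit, eBayes, R 4.3.3) compared regions over the pool values, two-sided, with 6 residual and 1.26 prior degrees of freedom. Benjamini-Hochberg adjustment covered all 18525 features, and an adjusted p under 0.05 passed. A list gene was represented by its feature with values on most arrays. The fit was run on simulated data with planted differences, each larger than any found for the 6 genes. That run does not bear on detecting differences of their size. The precision rests on 3 pools per region and 4 arrays per pool.

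The genes and lists were chosen with earlier results of these data known. Named are the 6 genes, the 3 features most like each, list genes that passed and, in the progenitor list, otherwise the 3 of lowest p; Neurog1, Neurog2, Hes6 and Dll1 were added after their values were seen. Alternatives varied centring, capped ratios, the minimum of arrays, the dye coefficient, array scale, blocks, the Gapdh covariate, arrays in place of pools, and each pool and array left out.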

Additional observations from a re-analysis of the deposited data

How the results depend on the processing

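All 6 genes stayed short of the threshold in all but 1 of 39 other settings. The exception took arrays in place of pools as samples, which treats arrays that share pools as independent and so gives p-values that are too small: 3 of the 6 genes then passed in each comparison, with 1325 features passing between rostral and caudal, 703 between rostral and middle and 501 between middle and caudal pools. The count of 12 features for rostral against caudal was 0 without centring, 0 with the Gapdh spots as covariate and 0 with either set of pools joined by arrays as a block. It was 46 among features with values on all 18 arrays, 7 with no minimum of arrays and 3 with the 4 arrays richest in capped ratios left out, a setting chosen after seeing the data. With 1 pool left out it was between 0 and 4, and with 1 array left out it reached 2 without array 13 and 22 without array 15. With the pool number as a replicate block it was 0. Deviations of same-numbered pools from their region means had correlations of -0.43 to -0.057. Such pools were never paired on an array, and the deviations sum to 0 within a region. These correlations therefore cannot show whether same-numbered pools came from the same embryos, and the labels do not say.

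Without centring the median of all features moved to -0.069, 0.10 and -0.17 for rostral minus caudal, rostral minus middle and middle minus caudal. Of 18 differences of the 6 genes, 13 kept their sign in all 39 settings. Not every setting could turn a sign. Changing the minimum of arrays, dropping the dye coefficient, adding a block or taking arrays as samples left each estimate of these genes the same. Signs turned for Btg2, middle minus caudal (-0.17 without centring, -0.046 with the Gapdh covariate, -0.0093 without the 4 arrays, -0.069 to 0.040 with 1 pool or array left out). They turned for Eomes, rostral minus middle (0.063 without centring, -0.11 to 0.028 with 1 left out) and middle minus caudal (-0.086 to 0.015 with 1 left out), and for Rgs16 without centring (middle minus caudal -0.010, rostral minus caudal -0.050). The cause was not tested.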
